A study of Mus musculus with 2 samples.

Results

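The aminoacyl-tRNA synthetases are the enzymes that attach each amino acid to its own transfer RNA. They were described here as 36 genes, chosen by name, of the 19057 genes named on the array. The cytosolic enzymes make up 20 of these genes, which supply protein synthesis by cytosolic ribosomes. The other 16, with symbols ending in 2, encode mitochondrial enzymes, which are made in the cytosol, imported, and supply the mitochondrial ribosomes. Gars and Kars, counted as cytosolic, are single genes that encode both forms. The enzymes fall into 2 unrelated structural families, class I and class II. Several cytosolic enzymes are held together with scaffold proteins in the multisynthetase complex. In mammalian cells, many cytosolic synthetase genes are known targets of ATF4, a transcription factor that is made when amino acids are short.

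Bone marrow lineage- Sca1+ c-Kit+ (LSK) cells, which include the blood-forming stem cells and the first progenitors made from them, were compared between an Ago2 Hem KO sample and a Control sample of C57BL/6J mice. Ago2 encodes an Argonaute protein, which silences messenger RNAs together with microRNAs. The labels give neither the driver of the deletion, nor the alleles the Control carries, nor the age, sex or number of animals behind each sample. Each genotype had 1 Illumina bead array of 45281 probes, so no test was possible and no value has an error, the precision being limited by the number of arrays. A probe was called detected where its detection p-value, against the negative control beads of the array, was under 0.01. This held for 15594 probes in the Ago2 Hem KO sample and 14834 in the Control. The Ago2 Hem KO array was the brighter one, with a 75th percentile signal of 135 against 121 in the Control. Signals were therefore background corrected and quantile normalized before they were compared, and all levels and differences below are on the log2 scale unless called a signal. Differences are Ago2 Hem KO minus Control, and a gene was called changed at 1.5-fold or more on its brightest detected probe.

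The targeted gene was the first check of the labels. The brightest Ago2 probe had a normalized level of 6.62 in the Ago2 Hem KO sample, against 7.91 in the Control, a fall by 1.29. The other Ago2 probes also gave negative differences, at -0.79 and -0.44, and all 3 stayed above background on both arrays. The sources used here do not say whether these probes fall inside the deletion. Kit, the gene of the gate's c-Kit, was detected in both samples, and no probe named Ly6a, the gene of Sca1, was available here. Of other genes known from stem and progenitor cells, Cd34 and Meis1 were detected in both samples and Flt3 in neither. After normalization the differences were 0.22 for Kit, 0.30 for Cd34 and 0.14 for Meis1. A second detected probe gave 0.12 for Kit and 1.25 for Meis1, the latter with signals of 267 in Ago2 Hem KO and 137 in Control. Markers of other cell types also differed between the samples. Of 6 erythroid markers, the Ago2 Hem KO array detected 5 and the Control array 4, with summed signals of 3600 in Ago2 Hem KO and 1213 in Control, and the 4 detected on both, led by Hba-a1 at 2.14, were each over 2-fold higher after normalization. Of 6 macrophage markers, the Ago2 Hem KO array detected 4 and the Control array 1, with sums of 709 in Ago2 Hem KO and 503 in Control. C1qa, C1qb and C1qc passed on the Ago2 Hem KO array alone, at least 1.09-fold, 2.75-fold and 2.94-fold higher there. For B cells, 4 of 6 markers passed on each array, with sums of 1019 in Ago2 Hem KO and 1125 in Control, and all 4 had negative normalized differences, with Igll1 lowest at -0.79. All 6 neutrophil markers passed on each, with sums of 24633 in Ago2 Hem KO and 22470 in Control. These sums are mostly S100a8 and S100a9, and after normalization 5 of the 6 had negative differences, of which Ltf (signals of 533 in Ago2 Hem KO and 853 in Control) and Retnlg (109 in Ago2 Hem KO and 137 in Control) were over 2-fold lower in Ago2 Hem KO. Plasma cell markers passed in 3 of 5 cases on each (4375 in Ago2 Hem KO and 4034 in Control), with Jchain and Sdc1 in neither. That sum is mostly Xbp1 (-0.18 after normalization), while Mzb1 (1.38) and Pou2af1 (1.39) were over 2-fold higher in Ago2 Hem KO. T and NK cell markers passed in 2 of 5 cases on each (6770 in Ago2 Hem KO and 7451 in Control), with Cd3e, Cd3g and Cd8a in neither, and Thy1 at -0.70 and Nkg7 at -0.35 after normalization. In bulk RNA of this kind fewer cells of a type and less RNA per cell cannot be told apart. The part of these cell types in the synthetase values was not tested.

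Synthetase transcripts were present in both samples for most of the enzymes. Of the 36 genes, 27 were detected on both arrays, 15 cytosolic and 12 mitochondrial. Members were named by 77 probes in all. Another 3, all cytosolic, passed detection on the Ago2 Hem KO array alone and 0 on the Control array alone. Over all named genes, 2.38% did so on the Ago2 Hem KO array and 1.20% on the Control array. Cars, the cysteine enzyme, had signals of 110 in the Ago2 Hem KO sample and 92.4 in the Control on its detected probe, which puts the Ago2 Hem KO level at least 1.16-fold above the Control level. Farsa, the α subunit of the phenylalanine enzyme, had signals of 110 in the Ago2 Hem KO sample and 95.1 in the Control, or at least 1.15-fold more. For Hars, the histidine enzyme, the signals were 104 in the Ago2 Hem KO sample and 91.7 in the Control, and no fold is given. Each bound is the normalized level in the Ago2 Hem KO sample over the lowest normalized level of any detected Control probe. These 3 genes lay close to background, where the lowest detected signals were 101 in the Ago2 Hem KO sample and 97.8 in the Control. Yars, the tyrosine enzyme, and the mitochondrial Hars2, Nars2, Wars2 and Yars2 were detected in neither sample. No probe used here carried the name of Dars, the aspartate enzyme.

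Only Tars was called changed among the 27 genes detected on both arrays (1 of 27). Of all 8212 such genes, 3.8% were called, 1.9% higher and 1.9% lower. No synthetase gene was called lower, and none reached 2-fold, which 0.304% of all genes did upward and 0.134% downward. Thus 96.3% of the synthetase genes lay within 1.5-fold, as did 96.2% of all genes. The median difference was -0.02 over the cytosolic genes and -0.13 over the mitochondrial genes, against -0.05 over all genes. These signs depend on the scaling: with both arrays scaled to the same median, which moved the median of all genes by 0.21, the medians were 0.17 and 0.075, against 0.16 over all genes. Relative to the median of all genes, the mitochondrial median was lower in each of the 11 settings computed, by 0.08 here, and the cytosolic median was higher in each of them, by 0.03 here. The gap between the cytosolic and the mitochondrial median was 0.11. For scale, 2 probes of one gene on these arrays differed from each other by a median of 0.18 over 3016 genes. Over the 16 synthetase genes with a second detected probe that median was 0.13. Both values concern single genes, and the spread of a median over many genes was not estimated.

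**Figure D1:**
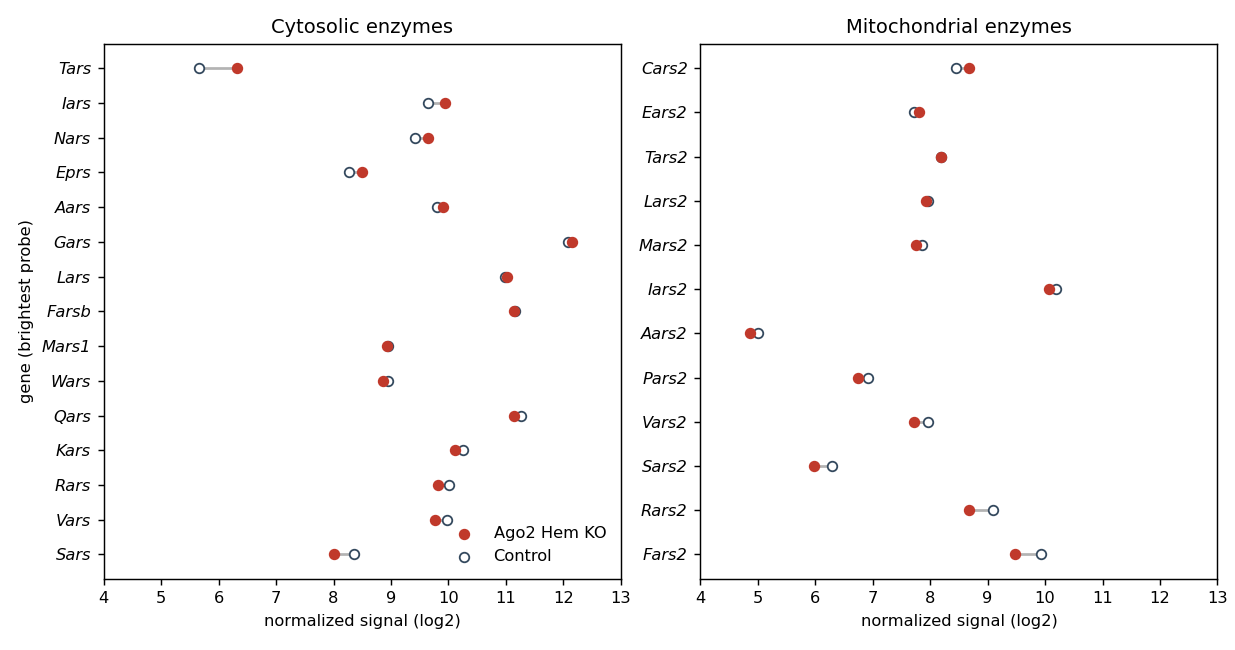
Normalized log2 signal of each synthetase gene detected on both arrays (brightest probe), with Ago2 Hem KO as filled red points and Control as open points, 1 array each, cytosolic enzymes in the left panel and mitochondrial enzymes in the right panel, ordered by their difference. Most pairs of points nearly coincide, Tars is farthest apart with the Ago2 Hem KO level higher, and Fars2 and Rars2 lie apart with the Ago2 Hem KO level lower; levels of different genes come from different probes and are not comparable.

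The largest difference under these settings was that of a threonine enzyme, although Fars2 lay farther from 0 without background correction, with the larger offset and in the authors' deposited table. The cytosolic enzyme gene Tars had a signal of 159 in the Ago2 Hem KO sample and 115 in the Control. Its normalized levels were 6.32 in the Ago2 Hem KO sample and 5.66 in the Control, so that Tars rose 1.58-fold, above 98.6% of all genes. That rise did not extend to its other probe. There Tars had signals of 96.6 in the Ago2 Hem KO sample and 99.9 in the Control, detected in the Control only and at least 1.17-fold lower in the Ago2 Hem KO sample. The rise also depended on the treatment of background, since the difference of 0.66 was 0.31 without background correction, 0.43 with a larger offset and 0.28 in the authors' deposited table, all short of 1.5-fold. The mitochondrial threonine enzyme gene Tars2 had levels of 8.18 in the Ago2 Hem KO sample and 8.19 in the Control.

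The other cytosolic genes with positive differences were Iars, Nars, Eprs, Aars, Gars and Lars, which makes 7 of 15 with Tars, where 41.8% of all genes were above 0. Together with Tars, these 7 lay above 0 and above the median of all genes in every setting that gave them a value. The settings that alter only the detection filter left each of these values unchanged, so the settings are not independent checks. The other Tars probe, at -0.45, entered none of them. Iars, the isoleucine enzyme, had levels of 9.95 in the Ago2 Hem KO sample and 9.65 in the Control, a difference of 0.29, and its second probe gave 0.33. Nars, the asparagine enzyme, had 9.65 in the Ago2 Hem KO sample and 9.41 in the Control (0.24) on its single probe. Eprs encodes a fused enzyme that charges both glutamate and proline. Eprs had 8.49 in the Ago2 Hem KO sample and 8.27 in the Control (0.21), and its dimmer probes differed by 0.08 and 0.07. Aars, the alanine enzyme, had 9.90 in the Ago2 Hem KO sample and 9.79 in the Control (0.11). Gars, which supplies the glycine enzyme of both compartments, had 12.16 in the Ago2 Hem KO sample and 12.08 in the Control (0.08). Lars, the leucine enzyme, which also takes part in leucine sensing by mTORC1, had 11.02 in the Ago2 Hem KO sample and 10.98 in the Control (0.05), while its second probe gave 0.23. The differences of Aars, Gars and Lars were smaller than the median distance of 0.18 between 2 probes of a gene.

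The 8 remaining cytosolic genes had negative differences. Sars, the serine enzyme, was the lowest, with levels of 8.02 in the Ago2 Hem KO sample and 8.36 in the Control, a difference of -0.34. Its second detected probe gave -0.47, close to background with signals of 108 in the Ago2 Hem KO sample and 112 in the Control. Sars stayed below 0 and below the median of all genes in all 11 settings. It was the only cytosolic gene that did so relative to 0. Kars, the lysine enzyme of both compartments, had 10.11 in the Ago2 Hem KO sample and 10.26 in the Control (-0.15, and -0.04 on its second probe). Qars, the glutamine enzyme, had 11.13 in the Ago2 Hem KO sample and 11.26 in the Control (-0.13), with -0.18 and -0.21 on its other detected probes. Wars, the tryptophan enzyme, which interferon-γ is known to induce, differed by -0.09 on its brightest probe, at 8.86 in the Ago2 Hem KO sample and 8.95 in the Control. All 4 Wars probes were detected and all were negative, down to -0.27. Kars, Qars and Wars lay below the median of all genes in every setting, but above 0 when the arrays were scaled to the same median.

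The other 4 genes each lay above the median of all genes in at least 1 setting and below it in at least 1. Vars, the valine enzyme, had levels of 9.77 in the Ago2 Hem KO sample and 9.97 in the Control (-0.20), while its other probes gave 0.02 and 0.14. Rars, the arginine enzyme, had 9.83 in the Ago2 Hem KO sample and 10.00 in the Control (-0.18), while its second probe gave 0.02. Farsb, the β subunit of the phenylalanine enzyme, was nearly level at 11.13 in the Ago2 Hem KO sample and 11.15 in the Control (-0.02), and at 0.02 on its second probe. Mars1, the methionine enzyme, once named Mars, had 8.92 in the Ago2 Hem KO sample and 8.95 in the Control (-0.03), while its second probe gave -0.22. Over the 16 synthetase genes with a second detected probe, the 2 brightest probes had the same sign in 13 (81.2%), and Farsb, Rars and Vars were the exceptions. Over all 3016 such genes the share was 63.8%.

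**Figure D2:**
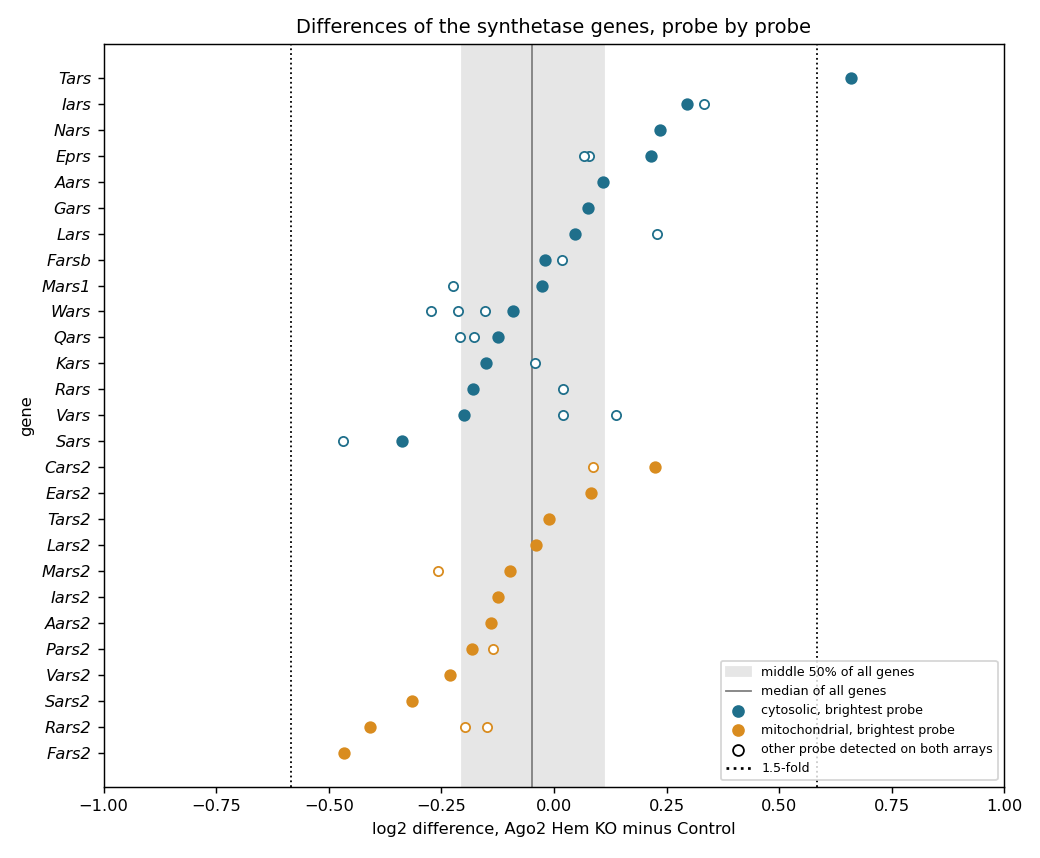
Log2 difference (Ago2 Hem KO minus Control, horizontal axis) of each probe detected on both arrays, for the 15 cytosolic genes above and the 12 mitochondrial genes below; filled points are the brightest probe, open points the others, the grey band the middle 50% of all 8212 genes and dotted lines 1.5-fold. Tars alone passes a dotted line, on its single point, and the probes of Vars, Rars and Farsb fall on both sides of 0; with arrays scaled to the same median the median of all genes moves up by 0.21.

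Among the mitochondrial enzymes, 10 of 12 differences were negative, where 58.1% of all genes were below 0. With the arrays scaled to the same median, 5 of the 12 were negative, but 8 of 12 lay below the median of all genes both there and here. Fars2, the mitochondrial phenylalanine enzyme, was the lowest synthetase gene, with levels of 9.47 in the Ago2 Hem KO sample and 9.93 in the Control on its single probe. That difference of -0.47 lay above 4.26% of all genes, and its signal was the lower one in the Ago2 Hem KO sample even before normalization, at 839 against 968 in the Control. Rars2, the mitochondrial arginine enzyme, had levels of 8.68 in the Ago2 Hem KO sample and 9.09 in the Control, a difference of -0.41. Its other detected probes gave -0.20 and -0.15, so that the size rests on 1 probe and, after normalization, the sign on 3. Before normalization only the brightest probe pointed down, with signals of 516 in Ago2 Hem KO and 572 in Control. The others pointed up, at 457 in Ago2 Hem KO and 443 in Control, and at 516 in Ago2 Hem KO and 489 in Control.

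Sars2, the mitochondrial serine enzyme, had levels of 5.97 in the Ago2 Hem KO sample and 6.28 in the Control (-0.31). Vars2, the valine enzyme, had 7.72 in the Ago2 Hem KO sample and 7.95 in the Control (-0.23). Pars2, the proline enzyme, which has no cytosolic gene of its own because Eprs serves there, had 6.74 in the Ago2 Hem KO sample and 6.92 in the Control (-0.18, and -0.14 on its second detected probe). Aars2, the alanine enzyme, was close to background, with signals of 102 in the Ago2 Hem KO sample and 98.8 in the Control and a normalized difference of -0.14. Fars2, Rars2, Sars2, Vars2 and Aars2 were below 0 in every setting that gave them a value. With arrays scaled to the same median, Vars2 was at -0.006 and Aars2 at -0.01. Before normalization the signals of Sars2, Vars2 and Aars2 were the higher ones in the Ago2 Hem KO sample. Sars2 had 140.2 in Ago2 Hem KO and 139.7 in Control, and Vars2 had 303 in Ago2 Hem KO and 296 in Control.

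Iars2, the isoleucine enzyme, had levels of 10.07 in the Ago2 Hem KO sample and 10.19 in the Control (-0.13), and its 2 probes gave nearly the same value. Mars2, the methionine enzyme, had 7.76 in the Ago2 Hem KO sample and 7.86 in the Control (-0.10, and -0.26 on its second probe). Lars2, the leucine enzyme, differed by -0.04. The positive exceptions were 2. Cars2, the mitochondrial cysteine enzyme, had levels of 8.68 in the Ago2 Hem KO sample and 8.46 in the Control (0.22), with 0.09 on its second detected probe. Ears2, which charges the mitochondrial glutamate tRNA, had 7.80 in the Ago2 Hem KO sample and 7.72 in the Control (0.08). Both were above 0 in every setting that gave them a value.

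Each mitochondrial enzyme was also set beside the cytosolic enzyme of the same amino acid. For 9 amino acids both genes were detected on both arrays, with Farsb standing for the cytosolic phenylalanine enzyme, and the cytosolic gene had the higher difference in 8. The median gap was 0.23. The gap was widest for threonine (0.67), phenylalanine (0.45) and isoleucine (0.42), followed by alanine (0.25) and arginine (0.23). This order depended on the background treatment. Without background correction the gaps were 0.32 for threonine, 0.41 for phenylalanine and 0.39 for isoleucine, and the authors' deposited table gave 0.29 for threonine, 0.40 for phenylalanine and 0.38 for isoleucine. The threonine gap rests on the brightest Tars probe, and the other Tars probe pointed the other way. The alanine gap ran from 0.14 in the authors' deposited table to 0.33 with scaling to the same median. Leucine (0.09), methionine (0.07) and valine (0.03) had gaps smaller than the usual distance between 2 probes of a gene. For serine both genes were negative and the gap was -0.02. Over the other settings that gave all 9 pairs, the cytosolic gene was higher in 7 or 8 of them. The 9 pairs are different genes on the same 2 arrays and not replicates of the comparison.

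**Figure D3:**
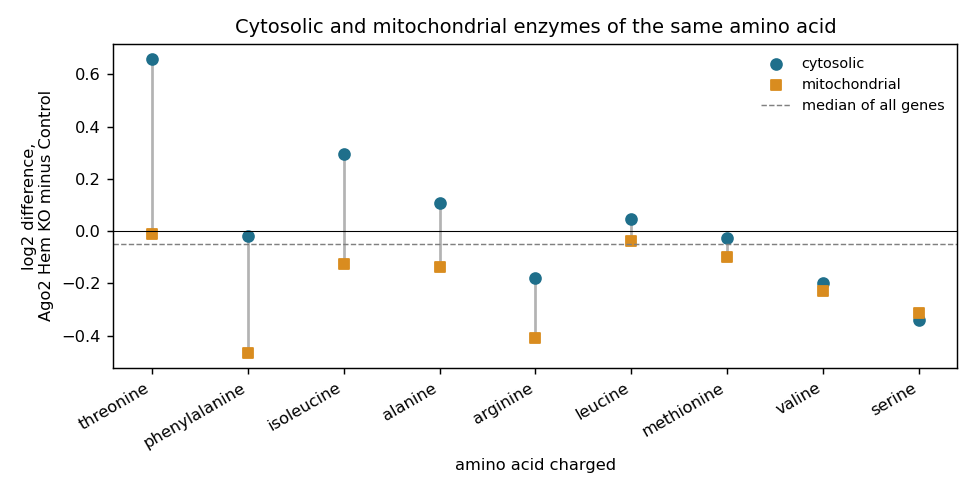
Log2 difference (Ago2 Hem KO minus Control, vertical axis) of the cytosolic gene (circles) and the mitochondrial gene (squares) that charge the same amino acid, for the 9 amino acids with both genes detected on both arrays; the dashed line is the median of all genes. The circle lies above the square for 8 of 9 amino acids, and serine is the exception by 0.02.

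The structural classes of the enzymes overlapped in their values. The class II mitochondrial enzymes (Aars2, Fars2, Pars2, Sars2 and Tars2) were all below 0, at a median of -0.18, with Fars2 at -0.47 and Tars2 at -0.01. The class I mitochondrial enzymes had a median of -0.10 and 2 of 7 above 0, with Rars2 at -0.41 and Cars2 at 0.22. The distance between these medians is smaller than the 0.18 between 2 probes of a gene, which is a value for single genes and not for medians. With the second-brightest probe it closed, at -0.13 for class II, from 1 gene, and -0.14 for class I, from 4 genes. Among the cytosolic enzymes, class II had a median of 0.08 with 4 of 7 above 0, and class I -0.09 with 2 of 7 above 0, Eprs being left out because it joins both classes. That order turned with the second-brightest probe, at -0.04 for class II, from 3 genes, and 0.02 for class I, from 7 genes.

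The enzymes of the multisynthetase complex lay on both sides of the median of all genes. Of the 8 complex enzymes listed, 7 were detected on both arrays, from Iars at 0.29 to Rars at -0.18, with a median of -0.03 and 3 of 7 above 0. The genes of its scaffold proteins covered a wider range. Eef1e1, also known as Aimp3, had levels of 9.09 in the Ago2 Hem KO sample and 8.60 in the Control, a difference of 0.49, and it passed 1.5-fold only with arrays scaled to the same median. Aimp2 had 9.58 in the Ago2 Hem KO sample and 9.60 in the Control (-0.02, and -0.25 on its second probe). Aimp1 had 10.25 in the Ago2 Hem KO sample and 10.54 in the Control (-0.30).

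Other genes that serve mitochondrial tRNA charging were also on the low side. Mitochondria lack a glutamine enzyme of their own and make their glutamine tRNA by amidation of a glutamate-charged tRNA, with Qrsl1, Gatb and Gatc as the subunits, and Mtfmt formylates the initiator methionine tRNA. All 4 genes were detected, all were negative, 0 of 4 was called, and the median was -0.26. That median was below 0 in all 11 settings. Gatb had signals of 213 in the Ago2 Hem KO sample and 226 in the Control, a normalized difference of -0.43. Gatc had levels of 9.75 in the Ago2 Hem KO sample and 9.92 in the Control (-0.17). Their probes did not all share that sign, with a Gatb probe at 0.11 and a Gatc probe at 0.04.

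Of 39 tRNA maturation and modification genes, 32 were detected on both arrays, with a median of -0.07 and 9 above 0. Adat3, a subunit of the tRNA adenosine deaminase, had levels of 5.62 in the Ago2 Hem KO sample and 6.30 in the Control, the only call of the list, and it fell by 0.68. That is 1 of 32 genes, where 3.8% of all genes were called. Without background correction the Adat3 difference was -0.32, and it was -0.29 in the authors' deposited table. The highest was Trmt10c, a subunit of the mitochondrial RNase P, at 7.09 in the Ago2 Hem KO sample and 6.51 in the Control (0.58). Trmt10c passed 1.5-fold with scaling to the same median (0.84) and with cyclic loess (0.65), and Adat3 did not pass it with that scaling (-0.46). Among 6 elongation factors that take up or recycle the charged tRNA, 0 was called on the brightest probe, from Tsfm at 0.12 to Eef1g at -0.09. Dimmer detected probes ranged more widely. Eef1b2 gave 0.20 and 0.59 on these, the latter past 1.5-fold with signals of 1155 in Ago2 Hem KO and 681 in Control. Eef1d gave 0.26 and Eef1a1 -0.11 on theirs. Among editing factors and relatives, 5 of 6 were detected and 0 was called. Dtd1, a deacylase that clears D-amino acids from tRNA, was the highest at 0.31 (-0.01 on its second probe), and Tarsl2, a relative of Tars, was the lowest at -0.26 (0.04 on its second probe).

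The amino acid response genes, which include further ATF4 targets, leaned to the positive side. Of 31 listed, 20 were detected on both arrays, with 12 above 0 and 8 below, where 41.8% of all genes were above 0. The median was 0.05 against -0.05 for all genes. It lay above the median of all genes in all 11 settings. The distance was 0.10 here. The 0.18 between 2 probes of a gene is larger but concerns single genes, and the spread of such a median was not estimated. The stress protein gene Nupr1 was the only call, 1 of 20 genes, where 3.8% of all genes were called. Nupr1 had signals of 152 in the Ago2 Hem KO sample and 109 in the Control and a difference of 0.73. That difference was 0.29 in the authors' deposited table. Atf4 itself had levels of 10.67 in the Ago2 Hem KO sample and 10.40 in the Control (0.27, and 0.37 on its second probe). Asns, the asparagine synthetase, had 9.60 in the Ago2 Hem KO sample and 9.22 in the Control (0.38), but -0.04 on its second detected probe. Chac1, a glutathione-degrading enzyme, was the lowest at -0.27, followed by Gpt2 (-0.19), Phgdh (-0.18), Cebpg (-0.17) and Trib3 (-0.14).

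**Figure D4:**
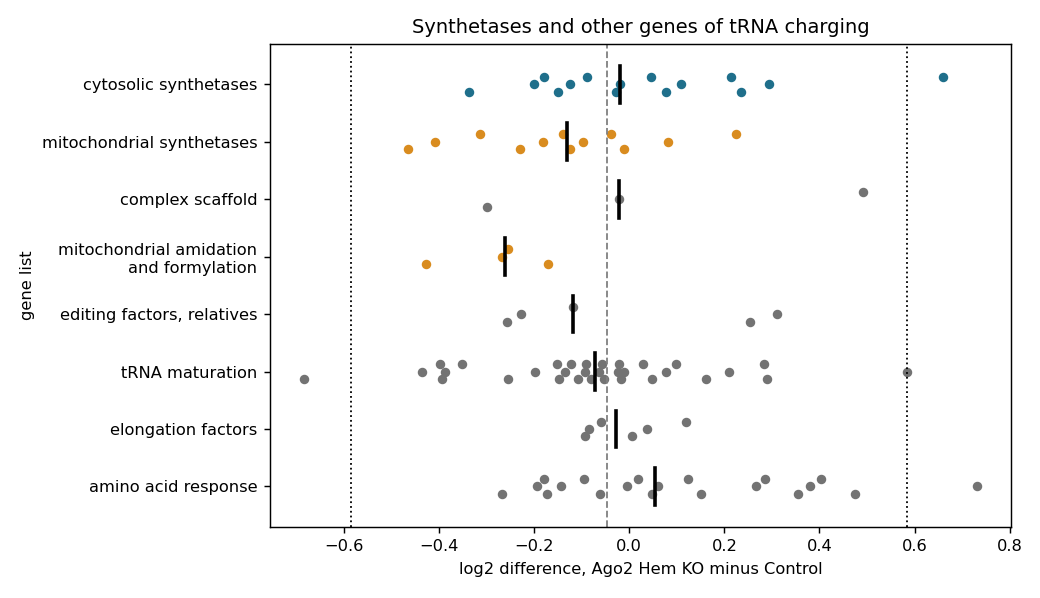
Log2 difference (Ago2 Hem KO minus Control, horizontal axis) of every gene detected on both arrays in each list (points, brightest probe), with list medians as black bars, the median of all genes as a dashed line and 1.5-fold as dotted lines. The bar of the mitochondrial synthetases (-0.13) and that of the mitochondrial amidation and formylation genes (-0.26) lie left of the dashed line, the bar of the amino acid response genes (0.05) lies right of it, and scaling to the same median moves the median of all genes up by 0.21.

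Promoter sequences were looked at because the cytosolic and mitochondrial medians lay 0.11 apart, a gap not tested. A further reason was that ATF4 sites are known in some of these promoters. RefSeq promoter windows (GRCm38.p6) of 300 bases, from 250 before to 50 after the gene start, were matched for 27 of the 36 genes. The motif TGATGNAA, the core of the element bound by ATF4 with C/EBP partners, was searched on both strands, as were the palindromic NRF1 motif and the ETS motif CCGGAAGT. These motifs were chosen with the values known. TGATGNAA was found in 5 of 13 cytosolic windows (38.5%) and 0 of 15 mitochondrial windows, against 3.97% of all 32851 windows. A match from each of the 5 genes is shown 5′ to 3′ on the strand of the gene, with the motif, or its reverse complement, in capitals.
Tars, chr15:11399655-11399684, minus strand: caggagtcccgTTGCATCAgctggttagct
Iars, chr13:49682126-49682155, plus strand: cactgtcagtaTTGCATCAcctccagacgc
Aars, chr8:111033840-111033869, plus strand: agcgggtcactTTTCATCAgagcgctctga
Gars, chr6:55037960-55037989, plus strand: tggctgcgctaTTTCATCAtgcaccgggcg
Yars, chr4:129189895-129189924, plus strand: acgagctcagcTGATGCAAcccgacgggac

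The 4 of these genes that were detected on both arrays had positive differences, from 0.08 (Gars) to 0.66 (Tars), with Aars at 0.11 and Iars at 0.29. The other Tars probe, detected in the Control only, gave -0.45. Of the 6 cytosolic genes with a window but no match, 1 was positive (Eprs, 0.21) and 5 were negative, with a median of -0.08 over the 6. Of the negative ones, Farsb (-0.02) and Mars1 (-0.03) lay above the median of all genes (-0.05). The contrast in sign between genes with and without a match also depends on the scaling. With both arrays scaled to the same median, Farsb (0.17), Mars1 (0.16), Kars (0.06) and Qars (0.06) were positive too, and only Sars (-0.11) stayed negative. A part of ATF4 in these values was not tested. Lars and Nars, the other positive cytosolic genes, had no window in the table, so they are in neither count. The motif of NRF1, a regulator of nuclear genes for mitochondrial proteins, was in 3 of 13 cytosolic and 2 of 15 mitochondrial windows, against 4.6% of all windows. The ETS motif was in 2 of 13 and 1 of 15 windows, against 3.89%. Its mitochondrial match was that of Rars2, shown because Rars2 was one of the lowest members.
Rars2, chr4:34614941-34614970, plus strand: aagcagaggcgACTTCCGGcgcggaggcgg
A match describes the letters of a window and does not show that a factor binds there.

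**Figure D5:**
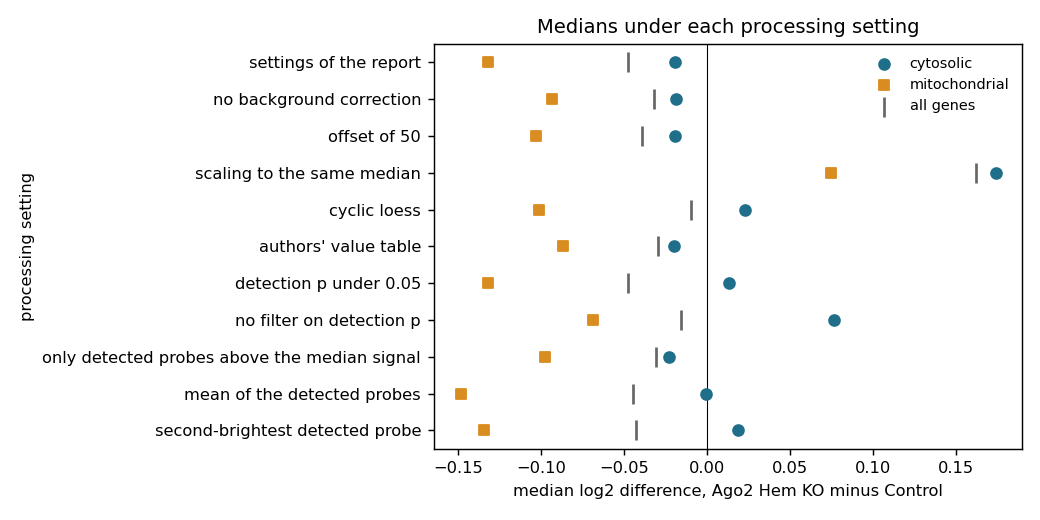
Median log2 difference (Ago2 Hem KO minus Control, horizontal axis) of the cytosolic genes (circles), the mitochondrial genes (squares) and all genes (grey ticks) under the settings of the report and each of the 10 alternatives (vertical axis). In every setting the square lies left of the tick and the circle right of it, by as little as 0.01 for the circle, while scaling to the same median moves all of them right of 0.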

How the data were processed

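Biotin-labelled RNA, amplified from total RNA, was put on Illumina bead arrays, per the labels' protocols. Per the file headers, the deposited table without normalization pairs each probe's linear intensity with a detection p-value on each array. The submitters' processing notes name BeadStudio. The authors' deposited value table holds intensity on a linear scale with the same distribution in both columns (medians 86.2 and 86.2), by a method not given in the sources used here. Within each array it kept the rank order of the unnormalized signals. It was used as an alternative.

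Signals were background corrected with the normexp model of limma 3.58.1 in R 4.3.3 (background inferred from the detection p-values, offset of 16), quantile normalized and put on the log2 scale. Quantile normalization removes a change shared by most genes, and the offset draws the differences of dim probes towards 0. Probes were named from the platform annotation, with symbols updated by gene identifier through RefSeq GRCm38.p6 (34807 of 34885 probes with 1 symbol matched, 18 had several and 10378 none). A gene took the value of its brightest probe, by mean level, among those with a detection p-value under 0.01 on both arrays. With 1 array per group no test was run. The steps were also run on simulated data. No result of that run is given here, so it adds nothing to the calls of the dim genes Tars, Adat3 and Nupr1.

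The named genes were all members, Ago2, and from each other list the genes at 1.5-fold or more, up to 4, or else the highest and the lowest. Further genes of the short lists, Atf4 and Asns were named after their values were seen. The members and lists were chosen with earlier results of these data known. The alternatives were the authors' table, cyclic loess, scaling of both arrays to 1 median, a larger offset of 50, signals left without background correction, a detection p-value under 0.05, no such filter, only detected probes above the median level, the mean of the detected probes, and the second-brightest probe. Several alternatives keep the same brightest probe and leave the value of a gene unchanged, so agreement over settings is not a set of independent checks. Counts relative to the median of all genes were added after seeing the data. One promoter sequence is not reported here.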

Additional observations from a re-analysis of the deposited data

How the results depend on the processing

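The count of synthetase genes at 1.5-fold or more was 1 here and 0 without background correction, with an offset of 50, in the authors' table, with only detected probes above the median level and with the second-brightest probe, and Tars had no value in the last pair of settings. Adat3 lost its call in 4 settings and Nupr1 in 3, while Trmt10c gained one in 2 settings and Eef1e1 in 1. Tars, Adat3 and Nupr1 kept their sign in each setting that gave them a value. Over all genes, 312 were called (156 higher and 156 lower), against 64 without background correction (46 and 18), 115 with an offset of 50 (76 and 39), 57 in the authors' table (42 and 15), 562 with scaling to the same median (529 and 33), 96 with only detected probes above the median level (60 and 36) and 125 with the second-brightest probe (82 and 43). Cyclic loess gave 318 (202 and 116).

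Scaling to the same median moved the cytosolic median to 0.17 and the mitochondrial median to 0.075, and put 14 of 15 cytosolic and 7 of 12 mitochondrial genes above 0, in place of 7 and 2. With no filter on detection p-values, 11 of 19 cytosolic and 6 of 16 mitochondrial genes were above 0, and 7 of 16 mitochondrial genes were above the median of all genes in place of 4 of 12. With the second-brightest probe, 1 of 5 mitochondrial genes was above 0, and the same number above the median of all genes. The gap between the cytosolic and mitochondrial medians, 0.11 here, ran from 0.07 to 0.15. No paired analysis was possible because each group had 1 array, and no array could be left out for the same reason. Members near background (Aars2, Cars, Farsa, Hars, the dimmer Tars probe and the second detected Sars probe) had signals that barely exceeded the negative control beads.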
